A study of Sus scrofa with 12 samples.

Results

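The 10 genes of triglyceride assembly and lipid droplet coating described here were measured in IPEC-J2, a line of pig intestinal epithelial cells. The genes are GPAT3, GPAT4, AGPAT2, AGPAT3, LPIN1, LPIN2, DGAT1, DGAT2, PLIN2 and PLIN3, taken by gene symbol from a table of m6A peaks and by gene identifier from a table of gene expression. Of these 10 genes, 8 had a peak, with 20 peaks in all among 25055, and 9 were found in the expression table of 20889 genes. AGPAT2 was found in neither table, and DGAT2 had no peak.

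The cells carried no engineered change (genotype WT) and were kept for 24 h with 25 µM OAA, the compound of the study, or with 0 µM OAA (CON). The replicates are numbered 1 to 3 per treatment and are called cultures below. Each has a library titled input and one titled IP, in all 12 libraries in 4 groups. The assay, MeRIP-seq, uses an antibody against N6-methyladenosine (m6A) to select modified RNA fragments and sequences them next to an unselected portion. The title of the series concerns lipid accumulation, and the comparison asks whether OAA goes with another RNA level or another m6A signal.

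Cells build triglyceride at the endoplasmic reticulum in a chain of acylations. GPAT enzymes put a first fatty acyl chain on glycerol-3-phosphate, AGPAT enzymes put on the next to give phosphatidic acid, lipins remove its phosphate to give diacylglycerol, and DGAT enzymes add the last chain. The product is stored in lipid droplets coated by perilipins, and in enterocytes it is also packed into chylomicrons. m6A is the most common internal modification of mRNA, lies mostly near stop codons and in 3′ UTRs, and is bound by reader proteins such as YTHDF2, which promotes mRNA decay.

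Reads counted in peaks came to between 16491095 and 23010413 per labelled-input library and between 3709352 and 4607452 per labelled-IP library. The titles and the data disagree over which libraries are the antibody part, which leaves it unsettled. The labelled-input libraries hold more counts in 97.3% of 24931 peaks in OAA and in 98.3% in CON. The authors' log2 ratios, labelled input over labelled IP, have a median over all peaks of 4.04 in OAA and 3.97 in CON. The expression table carries the codes of the libraries titled IP. Every value below is therefore named by its label. The labels do not say whether cultures were separate, so the p-values reflect the spread among these samples alone, and this spread may be technical. The cells expressed epithelial markers: EPCAM averaged 189 FPKM in OAA and 202 FPKM in CON, and CDH1 averaged 128 FPKM in OAA and 131 FPKM in CON. Of the marker genes found, those with a mean of at least 1 FPKM were 5 of 5 for epithelium, 2 of 6 for enterocytes, 1 of 5 for goblet cells, 1 of 6 for adipocytes, 0 of 6 for fibroblasts, 0 of 5 for leukocytes and 3 of 3 for endothelium, and limma called none of the 12 tested. LEP and FABP4, both made by adipocytes, were listed at 0, while the adipocyte marker LIPE averaged 2.75 FPKM in OAA and 2.63 FPKM in CON. FABP2, made by mature enterocytes, averaged 0.00533 FPKM in OAA and was listed at 0 in CON. The 2 enterocyte markers above 1 FPKM were SI, at 12.6 FPKM in OAA and 12.9 FPKM in CON, and APOA1, at 4.5 and 4.6 FPKM.

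No member passed the test of a different FPKM in OAA and CON cultures. FPKM are fragments scaled to transcript length and library depth. They come from the libraries titled IP, so if the titles hold they measure antibody-selected RNA, and if not, unselected RNA. They were tested with limma on log2(FPKM + 1), a scale that understates changes of low genes. None of the 8 members tested passed an adjusted p under 0.05 (0 called, 0 of 8 at an unadjusted p under 0.05), against 0% called among 10763 genes, of which 356 had an unadjusted p under 0.05. The differences lay between -0.14 and 0.17 log2 units, with a median of -0.00 for the members and -0.01 for all genes tested. In such bulk samples, fewer cells that express a gene and less RNA per cell cannot be told apart.

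GPAT3 and GPAT4, both glycerol-3-phosphate acyltransferases, had the highest FPKM of the members. GPAT3 had 68.6, 69.3 and 68.2 FPKM in OAA, against 62.0, 64.8 and 67.1 FPKM in CON. All 3 OAA libraries lay above all 3 CON libraries, by 0.09 ± 0.05 log2 units (SE, limma, adjusted p = 0.999995). Of all genes tested, 3.28% had every OAA value above every CON value and 5.27% had every OAA value below, and among the 8 members these were 1 and 0. GPAT4 had 62.5, 61.8 and 55.6 FPKM in OAA, against 58.7, 59.4 and 64.3 FPKM in CON, and its groups overlapped.

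AGPAT3, which acylates lysophosphatidic acid and other lysophospholipids, had 31.6, 31.3 and 27.6 FPKM in OAA, against 29.1, 30.4 and 32.2 FPKM in CON. Its groups overlapped too. LPIN2 had the higher FPKM of both lipins, with 45.6, 46.9 and 45.0 FPKM in OAA, against 47.5, 45.8 and 49.8 FPKM in CON. LPIN1, the other lipin, had 4.95, 5.14 and 4.11 FPKM in OAA, against 3.94, 4.21 and 4.05 FPKM in CON. OAA cultures 1 and 2 of LPIN1 stood above all CON cultures while OAA culture 3 lay among them. The LPIN1 difference of 0.17 ± 0.09 log2 units did not pass the test (SE, limma, adjusted p = 0.999995).

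DGAT1, the diacylglycerol acyltransferase used by enterocytes for dietary fat, had a higher FPKM than DGAT2 in every library. DGAT1 had 10.1, 9.61 and 7.12 FPKM in OAA, against 9.12, 9.62 and 10.8 FPKM in CON. DGAT2 had 0.596, 0.503 and 0.373 FPKM in OAA, against 0.483, 0.367 and 0.292 FPKM in CON, which is below the filter of 1 FPKM in 3 libraries, so it was not tested. Both genes overlapped between the treatments.

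The perilipins had intermediate levels. PLIN2, whose protein coats droplets in most cell types, had 21.9, 20.8 and 19.5 FPKM in OAA, against 18.3, 18.5 and 19.98 FPKM in CON. Its groups overlapped through OAA culture 3, and its difference was 0.12 ± 0.07 log2 units (SE, limma, adjusted p = 0.999995). PLIN3, a perilipin that moves between cytosol and droplets, had 11.0, 8.97 and 9.29 FPKM in OAA, against 9.54, 9.02 and 10.3 FPKM in CON.

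**Figure D1:**
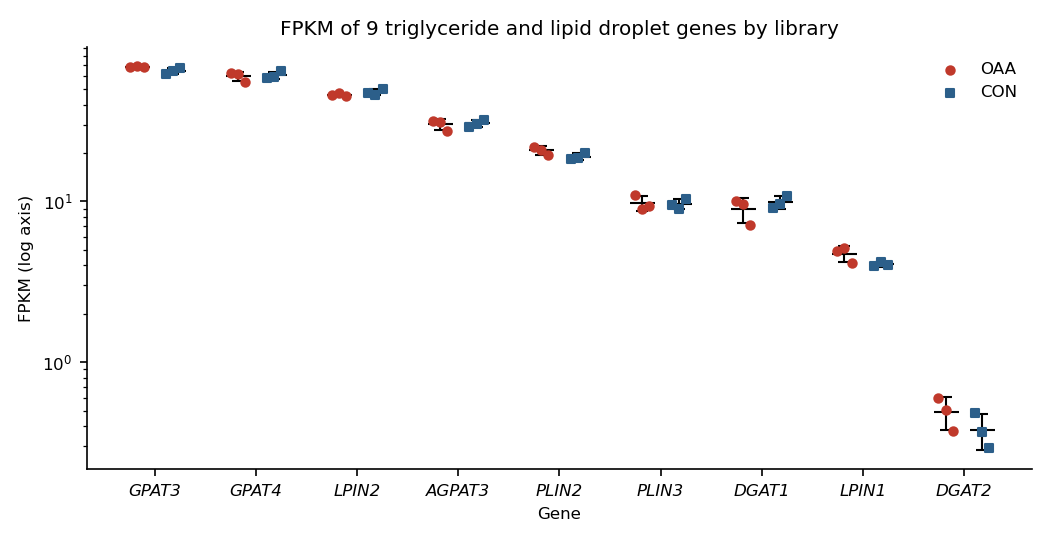
FPKM (log axis) of the 9 members found in the expression table, in order of mean level, in OAA (circles, left) and CON (squares, right). Points are the 3 libraries of a group, the horizontal mark is the mean and the bar is 1 SD. GPAT3 and GPAT4 lie between 55.6 and 69.3 FPKM and DGAT2 lies below 1 FPKM, and OAA and CON points lie close together on this scale.

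Over all 6 libraries the order of the FPKM levels was GPAT3 (66.7 ± 2.78, SD), GPAT4 (60.4 ± 3.10), LPIN2 (46.8 ± 1.74), AGPAT3 (30.4 ± 1.73), PLIN2 (19.8 ± 1.38), PLIN3 (9.70 ± 0.816), DGAT1 (9.40 ± 1.25), LPIN1 (4.40 ± 0.511) and DGAT2 (0.436 ± 0.111). Neighbours in that order had separate ranges, except GPAT3 with GPAT4 and PLIN3 with DGAT1, whose ranges overlapped. OAA culture 3 had the lowest of the OAA values in 7 of the 8 members tested and in 46.7% of all genes tested. Without that library, LPIN1 differed by 0.25 and PLIN2 by 0.17 log2 units, both at an unadjusted p under 0.05 and with adjusted p of 0.177 and 0.212 from limma. In that fit 1763 of all 10706 genes tested had an unadjusted p under 0.05, against 356 of 10763 with all libraries.

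Counts in the labelled-input libraries, summed over the peaks that lie under 1 gene alone, were compared as a further measure per gene. If the titles hold they measure unselected RNA within peaks, and if not, antibody-selected RNA. In edgeR's quasi-likelihood test, none of the 7 members tested was called (0 of 7, and 0 at an unadjusted p under 0.05), against 0% of 9298 genes, of which 453 had an unadjusted p under 0.05. DESeq2 called 1 gene, which was no member. The differences lay between -0.07 for GPAT3 and 0.33 log2 units for DGAT1. The DGAT1 difference was 0.22 without OAA culture 3, 0.19 without CON culture 1, 0.17 without CON culture 2, 0.71 without CON culture 3 and 0.11 with the peaks it shares with HSF1. The DGAT1 value rests on its 1 peak that overlaps no other gene, with 7.98, 6.52 and 9.00 normalised read counts scaled to library size (CPM) in OAA, against 4.92, 4.63 and 8.99 CPM in CON. GPAT4, whose 3 peaks enter the sum, had 905, 950 and 823 CPM in OAA, against 872, 855 and 874 CPM in CON. Both genes overlapped between the treatments, and these sums are scaled over single-gene peaks of the labelled-input libraries, so they differ slightly from the CPM per peak given below.

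No gene of the related lists was called either. In limma on log2(FPKM + 1), 0 of 15 tested acyltransferases and phosphatases of glycerolipid synthesis passed, 0 of 18 other droplet proteins, 0 of 8 genes of droplet lipolysis, 0 of 7 genes of fatty acid uptake and activation, 0 of 15 genes of branches that use the same intermediates and 0 of 13 regulators. At an unadjusted p under 0.05 there were 1 gene of lipolysis, 1 regulator and 0 in the other 4 lists. List medians lay between -0.02 and 0.01 log2 units.

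The regulator was PPARA, a nuclear receptor that binds fatty acids. PPARA averaged 1.98 ± 0.0435 FPKM in OAA and 1.47 ± 0.159 FPKM in CON (SD, n = 3 each), a difference of 0.27 ± 0.09 log2 units (SE, limma, adjusted p = 0.999995). The lipolysis gene was CES1, a carboxylesterase that hydrolyses triglyceride, with 2.10 ± 0.0385 FPKM in OAA and 1.64 ± 0.158 FPKM in CON (SD, n = 3 each). CES1 differed by 0.23 log2 units (limma, adjusted p = 0.999995). In both genes every OAA library lay above every CON library, at levels not far above the filter. In the labelled-input counts per gene, PPARA differed by 0.05 and CES1 by -0.12 log2 units (edgeR, adjusted p = 0.971 and 0.984). There, CHKA of the branches and CTDNEP1 of the regulators had an unadjusted p under 0.05, and neither was called.

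Among the remaining genes with the smallest p in each list, ABHD5, the coactivator of the triglyceride lipase PNPLA2, averaged 5.68 FPKM in OAA and 6.69 FPKM in CON. PLPP1, a lipid phosphate phosphatase, averaged 12.9 FPKM in OAA and 11.4 FPKM in CON. INSIG1, which holds the SREBP transcription factors in the endoplasmic reticulum, averaged 22.0 FPKM in OAA and 20.6 FPKM in CON, while SREBF1, the gene of one of those factors, averaged 43.7 FPKM in OAA and 46.4 FPKM in CON. PLPP1 and INSIG1 had all OAA values above all CON values, and ATG2B, a lipid transfer protein of autophagosomes and droplets, had all of them below, with 5.53 FPKM in OAA and 6.11 FPKM in CON. The other genes that the rule names were DGKZ, AGPAT4, DGKE, FAF2, HSD17B11, RAB18, MGLL, PNPLA6, ACSL1, ACSL4, SLC27A1, FABP5, SELENOI, LPCAT4, ETNK1, LPCAT1 and INSIG2, whose groups overlapped in each case.

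**Figure D2:**
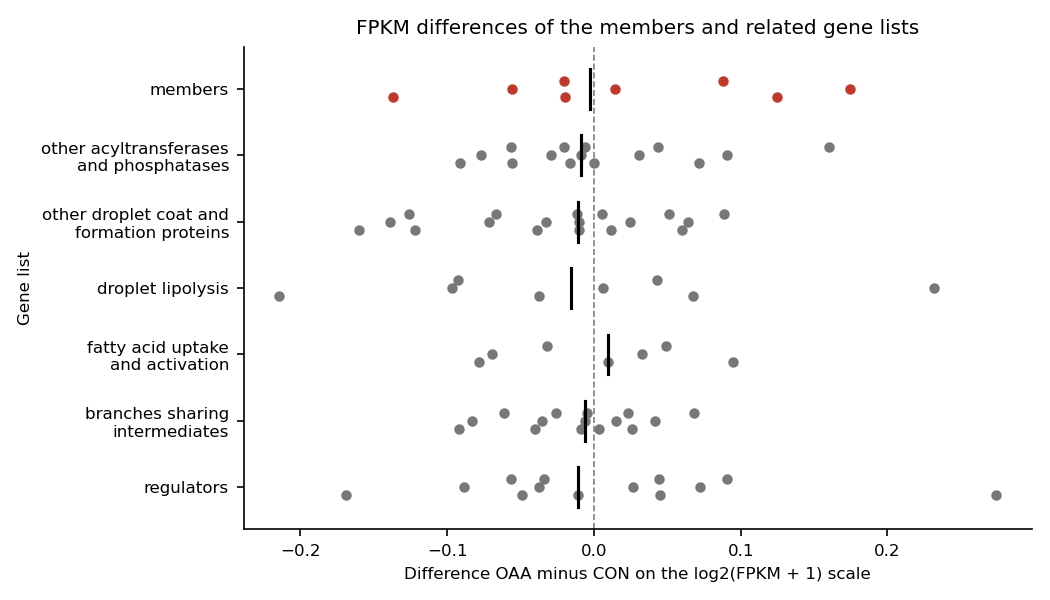
Differences OAA minus CON on the log2(FPKM + 1) scale for the 8 members (top row) and for the genes tested of 6 related lists. Each point is a gene and the black line is the median of its list; the outermost points are PPARA at 0.27 and ABHD5 at -0.21, and all medians lie close to 0.

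Most of the 20 peaks of the members lay at a stop codon or in a 3′ UTR. The table places 5 of them at a stop codon, 8 in a 3′ UTR, 3 at a start codon, 2 in a 5′ UTR, 1 in coding sequence and 1 in no transcript feature. Of 20274 single-gene peaks tested in OAA, 5120 lay at a stop codon and 3643 in a 3′ UTR. Whether the members differ from these in placement was not tested. Peaks are numbered along the direction of transcription, and positions are those of the deposited table, written from 1, on a genome build not given in the sources used here. In all, 3 peaks overlap a further gene and are shared values: DGAT1 peaks 2 and 3 overlap HSF1, on the other strand, and PLIN2 peak 1 overlaps ENSSSCG00000045652.

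Each peak was described by its peak ratio, the log2 ratio of labelled-input over labelled-IP counts in one treatment. The scaling sets the typical peak to 0, so a ratio is relative to other peaks and not a share of methylated molecules. If the libraries titled IP are the antibody part, every sign and rank below turns round: a low ratio then stands for more antibody signal, and if the titles are swapped, a high ratio does. In OAA, edgeR called 6 of the 20 peaks higher and 10 lower than the typical peak, against 33.6% higher and 34.4% lower among 23565 peaks. In CON it called 6 higher and 11 lower, against 34.9% and 34.6% of 23366 peaks. Scaled by library size alone, the median of all ratios moved by -0.29 in OAA and by -0.34 in CON, with 6399 calls higher and 9779 lower in OAA and 6403 higher and 10102 lower in CON, and no called peak of the members changed its direction.

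In AGPAT3, LPIN2 and GPAT4, the peaks of one gene differed more from each other than any member peak differed between the treatments, where the largest fitted change was 1.13 (AGPAT3 peak 1). AGPAT3 peaks ran from -1.48 to 2.09 in OAA and from -2.15 to 2.17 in CON. LPIN2 peaks ran from -1.29 to 2.03 in OAA and from -1.51 to 1.84 in CON, and GPAT4 peaks from -1.59 to 1.54 in OAA and from -1.74 to 1.54 in CON. These 3 genes each had peaks called in both directions, while all called peaks of GPAT3, DGAT1 and PLIN3 were lower and the called peak of LPIN1 was higher.

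At the first step of the pathway, both GPAT3 peaks were called lower and 2 of the 3 GPAT4 peaks were called higher. GPAT3 peak 2, at the stop codon (chromosome 8, 134913541 to 134913615, minus strand), had 20.3, 21.6 and 17.1 CPM in the OAA labelled-input libraries, against 22.9, 22.1 and 19.7 CPM in those of CON. In the labelled-IP libraries it had 86.8, 78.4 and 91.2 CPM in OAA, against 63.6, 71.0 and 70.4 CPM in CON. Its peak ratio was -2.09 ± 0.13 in OAA and -1.62 ± 0.11 in CON (SE, edgeR, adjusted p = 2.72e-13 and 7.89e-12), lower than all but 0.527% of 5120 single-gene stop-codon peaks in OAA and all but 4.60% of 5114 in CON. With the ratio turned, it stood above 99.5% of those peaks in OAA and above 95.4% in CON. GPAT3 peak 1, in the 5′ UTR (chromosome 8, 134976830 to 134976979), had ratios of -1.53 in OAA and -1.36 in CON.

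GPAT4 peak 1, listed at the start codon and spanning 8983 bp of the genome (chromosome 17, 10696963 to 10705945), held 65.6% of the gene's labelled-input peak counts. It had 557, 589 and 523 CPM in the labelled-input libraries of OAA, against 554, 537 and 551 CPM in those of CON. In the labelled-IP libraries it had 208, 205 and 172 CPM in OAA, against 189, 186 and 208 CPM in CON. The groups overlapped in both kinds of library, and the ratio was 1.54 ± 0.09 in OAA and 1.54 ± 0.06 in CON (SE, edgeR, adjusted p = 7.18e-14 and 2.68e-16).

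GPAT4 peak 3, in the 3′ UTR (10724526 to 10725000), had ratios of 1.44 in OAA and 1.41 in CON. GPAT4 peak 2, a 150 bp peak in coding sequence (10713851 to 10714000), had the opposite sign, with -1.59 in OAA and -1.74 in CON. It had 29.4, 39.1 and 33.7 labelled-input CPM in OAA, against 32.7, 34.8 and 30.9 CPM in CON, and 102, 108 and 103 labelled-IP CPM in OAA, against 112, 115 and 114 CPM in CON. All OAA labelled-IP values of this peak lay below all CON values, and its ratios overlapped between the treatments.

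In AGPAT3, one peak at the stop codon held nearly all labelled-input counts. AGPAT3 peak 2 (chromosome 13, 206904301 to 206904875, plus strand) carried 97.0% of the gene's labelled-input peak counts and 72.5% of its labelled-IP peak counts. It had 485, 492 and 431 labelled-input CPM in OAA, against 468, 502 and 507 CPM in CON, and 114, 107 and 116 labelled-IP CPM in OAA, against 112, 111 and 117 CPM in CON. Its ratio of 2.09 ± 0.09 in OAA and 2.17 ± 0.06 in CON (SE, edgeR, adjusted p = 2.94e-16 and 2.11e-18) was above that of 90.4% of stop-codon peaks in OAA and 91.3% in CON. With the ratio turned, it stood above 9.57% of them in OAA and above 8.68% in CON.

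Downstream in the same 3′ UTR, AGPAT3 peak 3 (206905376 to 206905425) and peak 4 (206905476 to 206905550) had the opposite sign. Their ratios were -1.19 and -1.48 in OAA and -2.15 and -1.54 in CON, all called lower. AGPAT3 peak 1, listed at the start codon and spanning 59299 bp (206825224 to 206884522), had 297 counts over all 12 libraries, a ratio of -0.20 in OAA that was not called (adjusted p = 0.702) and a ratio of -1.31 in CON that was called lower (edgeR, adjusted p = 0.00889). Without CON culture 2 the CON ratio of peak 1 was no longer called (-1.23, adjusted p = 0.0525).

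Both lipins had their main peak at the stop codon, called higher. LPIN2 peak 2 (chromosome 6, 103725179 to 103725853, plus strand) held 92.4% of the gene's labelled-input peak counts, with 417, 464 and 403 CPM in OAA, against 420, 416 and 442 CPM in CON. Its labelled-IP values were 156, 163 and 160 CPM in OAA, against 171, 158 and 191 CPM in CON. The ratio was 1.45 ± 0.08 in OAA and 1.35 ± 0.07 in CON (SE, edgeR, adjusted p = 1.18e-13 and 2.69e-14).

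LPIN1 peak 1 (chromosome 3, 124943098 to 124943422, minus strand) held 94.3% of that gene's labelled-input peak counts. It had 26.7, 24.3 and 21.1 labelled-input CPM in OAA, against 20.5, 19.3 and 24.2 CPM in CON, and 11.9, 11.0 and 11.3 labelled-IP CPM in OAA, against 8.98, 9.43 and 10.9 CPM in CON. Every OAA labelled-IP value lay above every CON value, whereas the ratios of 1.10 ± 0.18 in OAA and 1.18 ± 0.18 in CON overlapped by culture (SE, edgeR, adjusted p = 7.16e-06 and 3.84e-06).

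The 3′ UTR peaks of the lipins had lower fitted ratios than their stop-codon peaks. LPIN2 peak 3 (103726129 to 103726353) had ratios of -1.29 in OAA and -1.51 in CON, and LPIN2 peak 4 (103727604 to 103727778) had -1.11 in OAA and -1.13 in CON, all called lower. LPIN2 peak 1, listed in a 5′ UTR and spanning 26578 bp (103639803 to 103666380), was called higher, with 2.03 in OAA and 1.84 in CON. For this peak the gene start is listed at 103666337, so nearly all of its span lies before that start. For the other LPIN2 peaks the gene start is listed at 103578549. LPIN1 peak 2, in the 3′ UTR (124941048 to 124941097), had only 200 counts in 12 libraries, and its ratios of 0.10 in OAA and -0.48 in CON were not called. Its culture values ran from -0.88 to 1.00 in OAA and from -2.37 to 1.17 in CON, so its depth does not settle a sign. Without CON culture 3 its CON ratio was -1.74 and called lower (edgeR, adjusted p = 0.0285).

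DGAT1 had most of its counts in a peak shared with HSF1. DGAT1 peak 3 (chromosome 4, 463459 to 466433, plus strand), which runs past the listed end of the gene, held 95.9% of the labelled-input peak counts, with 259, 267 and 267 CPM in OAA, against 249, 234 and 256 CPM in CON. Its labelled-IP values were 452, 465 and 394 CPM in OAA, against 411, 432 and 407 CPM in CON. The OAA labelled-input values all lay above those of CON, by 0.11 ± 0.06 log2 units (SE, edgeR, adjusted p = 0.940). Its ratio was -0.70 in OAA and -0.71 in CON, called lower in both, and reads of DGAT1 and HSF1 cannot be told apart there.

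DGAT1 peak 2 (463059 to 463356), also shared with HSF1, had ratios of -1.24 in OAA and -1.31 in CON. DGAT1 peak 1, at the start codon (453061 to 453285), is the one that overlaps no other gene. Its ratio was -0.40 in OAA and -0.61 in CON (edgeR, adjusted p = 0.193 and 0.0632), with cultures at -0.64, -1.05 and 0.71 in OAA, against -1.06, -0.62 and -0.44 in CON. OAA culture 3 stood apart from the other OAA cultures, and without it the OAA ratio was -0.80 and called lower (adjusted p = 0.00968). The CON ratio was called lower without CON culture 3 (-0.82, adjusted p = 0.0417), and with both libraries of a culture as a block (-0.65, adjusted p = 0.0262).

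The perilipins had 1 peak each. PLIN3 peak 1, at the stop codon (chromosome 2, 73994714 to 73995013, plus strand), had 21.8, 25.7 and 19.7 labelled-input CPM in OAA, against 22.0, 20.6 and 25.8 CPM in CON, and 28.3, 31.8 and 35.1 labelled-IP CPM in OAA, against 30.5, 26.7 and 39.8 CPM in CON. Its ratio of -0.47 in OAA and -0.45 in CON was called lower in both (edgeR, adjusted p = 0.00880 and 0.0120). Without culture 3 of the same treatment neither call held, with -0.30 in OAA (adjusted p = 0.120) and -0.38 in CON (adjusted p = 0.0683).

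PLIN2 peak 1 (chromosome 1, 203699501 to 203699752, plus strand) lies within the gene in no feature of its transcript. It had 4.23, 5.72 and 6.84 labelled-input CPM in OAA, against 7.12, 5.03 and 7.02 CPM in CON, and 9.36, 11.0 and 5.84 labelled-IP CPM in OAA, against 8.31, 6.02 and 6.31 CPM in CON. The ratio was -0.62 in OAA and -0.05 in CON, not called in either (edgeR, adjusted p = 0.0532 and 0.876). OAA culture 3 had a ratio of 0.22, against -1.14 and -0.94 in the other OAA cultures, and without it the OAA ratio was -0.99 and called lower (adjusted p = 0.00615).

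**Figure D3:**
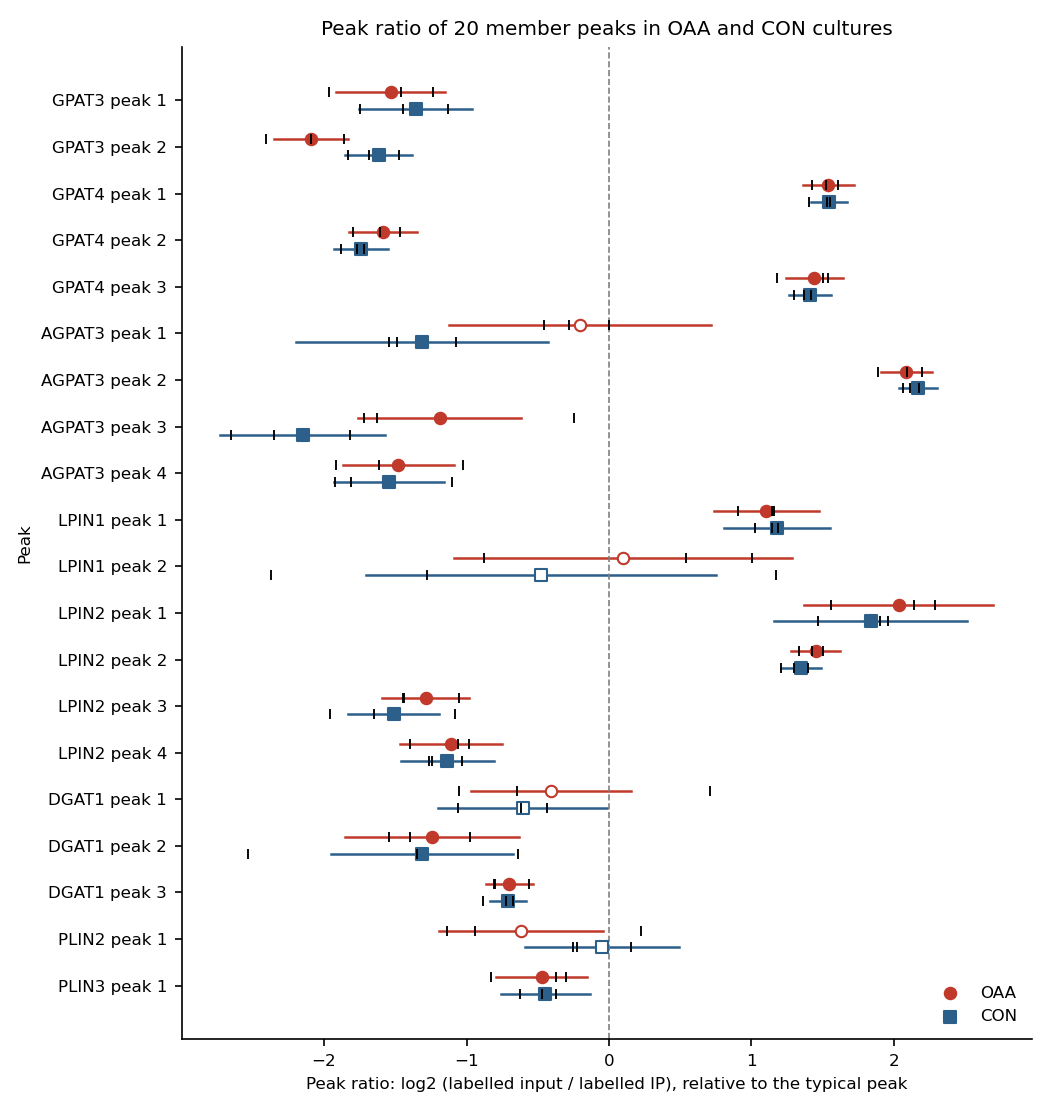
Peak ratio (log2 labelled input over labelled IP, 0 for the typical peak) of the 20 member peaks in OAA (circles, upper line) and CON (squares, lower line). Symbols are fitted values, filled where called, lines are 95% intervals and black ticks are the 3 cultures; GPAT4, AGPAT3 and LPIN2 have peaks on both sides of 0, and most OAA and CON intervals lie over each other.

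Narrow member peaks had low ratios. The 6 peaks called higher in both treatments span between 325 and 26578 bp. Of the 9 member peaks of at most 225 bp, 8 had ratios below 0 in both treatments, and LPIN1 peak 2 had 0.10 in OAA and -0.48 in CON. Among all single-gene peaks of at most 225 bp, 69.5% had a ratio below 0 in OAA and 70.1% in CON. Of the 10 member peaks called lower in OAA, 7 were at most 225 bp wide, against 53.2% of all single-gene peaks called lower there. Among all single-gene peaks over 500 and up to 1000 bp, 77.8% were above 0 in OAA and 78.4% in CON. Above 1000 bp these shares were lower, at 50.6% in OAA and 50.8% in CON. Widths are spans on the genome and can include introns. These shares therefore do not show how the ratio goes with width on the RNA. The part of width in the ratio was not tested.

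The last comparison asks whether the peak ratio itself changed with OAA, beyond what the RNA level does in both kinds of library. No member peak was called for this change in edgeR's interaction test (0 of 20), against 0% of 24145 peaks, of which 1076 had an unadjusted p under 0.05. DESeq2 called 1 peak, as did edgeR with the culture as a block, and neither called a member peak. At an unadjusted p under 0.05 stood 2 of the 20 member peaks, GPAT3 peak 2 and AGPAT3 peak 3. The median change was 0.07 for the 20 peaks and -0.01 for all peaks.

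GPAT3 peak 2 had culture ratios of -2.09, -1.86 and -2.41 in OAA, against -1.47, -1.68 and -1.83 in CON. All OAA cultures lay below all CON cultures, and the change was -0.45 ± 0.16 log2 units (SE, edgeR, adjusted p = 0.999). Within one kind of library, its labelled-IP counts differed by 0.31 ± 0.10 (SE, edgeR, adjusted p = 0.998) and its labelled-input counts by -0.13 ± 0.14 log2 units (adjusted p = 0.956). Leaving out OAA culture 3 gave a change of -0.30 and leaving out CON culture 1 gave -0.36, neither of them at an unadjusted p under 0.05.

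AGPAT3 peak 3, a 50 bp peak with 794 counts in all, had culture ratios of -1.72, -1.63 and -0.25 in OAA, against -2.35, -2.65 and -1.82 in CON. All OAA cultures lay above all CON cultures, and the change was 0.98 ± 0.40 log2 units (SE, edgeR, adjusted p = 0.999). Its labelled-input libraries had 3.66, 4.57 and 6.49 CPM in OAA, against 3.01, 1.81 and 4.04 CPM in CON, and its labelled-IP libraries 12.1, 14.3 and 7.72 CPM in OAA, against 15.5, 11.6 and 14.3 CPM in CON. OAA culture 3 held the highest labelled-input and the lowest labelled-IP value, and without it the change was 0.53 and no longer at an unadjusted p under 0.05. Without CON culture 1 it was 0.89, also not under that p. In the authors' deposited table AGPAT3 peak 3 has log2 ratios of 2.72 in OAA and 1.68 in CON. Those ratios do not set the typical peak to 0. Their median over all peaks is 4.04 in OAA and 3.97 in CON, so this peak lies below the median there too. GPAT3 peak 2 has 1.86 in OAA and 2.22 in CON there. The authors' unadjusted p is under 0.05 for AGPAT3 peak 3 and not for GPAT3 peak 2. Every adjusted p of the 20 member peaks there is 0.999802.

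The remaining AGPAT3 peaks differed among themselves. Peak 1 also had every OAA culture above every CON culture, with -0.46, -0.00 and -0.28 in OAA, against -1.49, -1.55 and -1.07 in CON, at a change of 1.13 ± 0.61 (SE, edgeR, adjusted p = 0.999). Peak 2, which holds most counts of the gene, changed by -0.06 with an interval of -0.27 to 0.16, and peak 4 by 0.09 with an interval of -0.46 to 0.64. Among all peaks, 4.90% had all culture ratios in OAA above those in CON and 5.37% had all of them below, against 2 and 1 of the 20 member peaks.

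Peaks with many counts had narrow intervals. The 95% interval of the change ran from -0.20 to 0.24 for GPAT4 peak 1, from -0.09 to 0.34 for LPIN2 peak 2, and from -0.17 to 0.24 for DGAT1 peak 3. It was wider for PLIN3 peak 1, from -0.45 to 0.44, for LPIN1 peak 1, from -0.56 to 0.46, and for PLIN2 peak 1, from -1.33 to 0.24. For LPIN1 peak 2 it ran from -1.18 to 2.38, which covers changes of either sign at that depth.

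**Figure D4:**
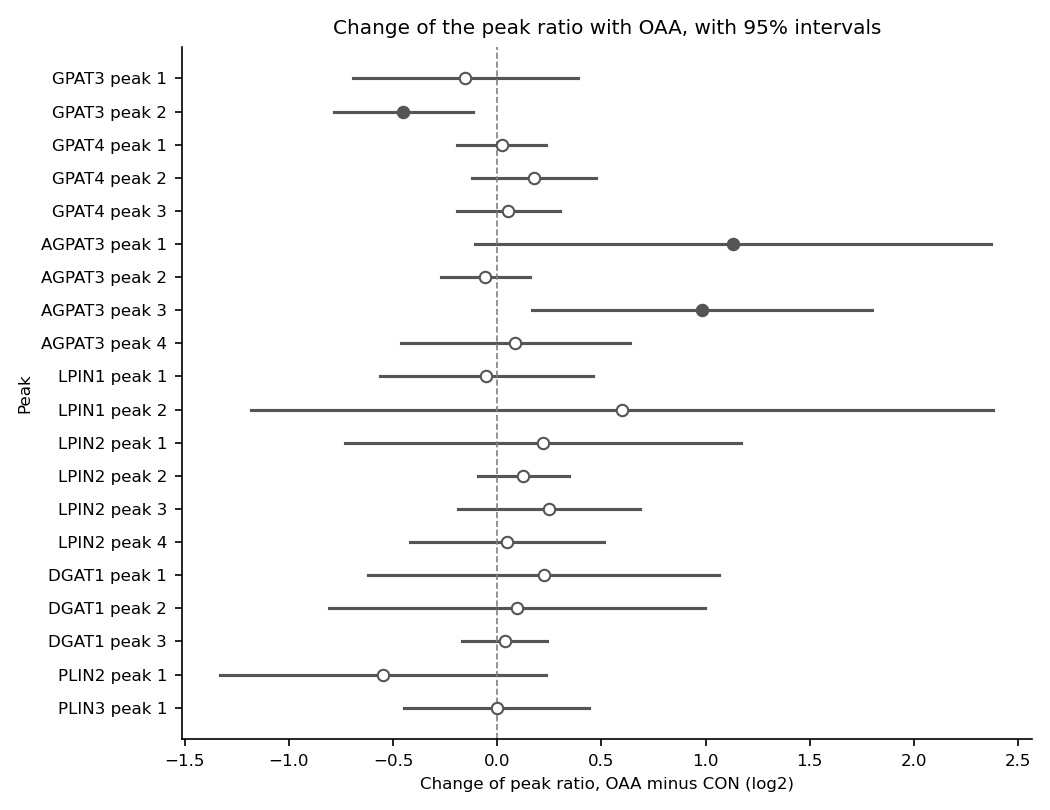
Change of the peak ratio, OAA minus CON in log2 units, for the 20 member peaks, with 95% intervals from the edgeR interaction test. Filled symbols mark the 3 peaks whose OAA and CON cultures do not overlap, GPAT3 peak 2 at -0.45, AGPAT3 peak 1 at 1.13 and AGPAT3 peak 3 at 0.98; no adjusted p is under 0.05.

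**Figure D5:**
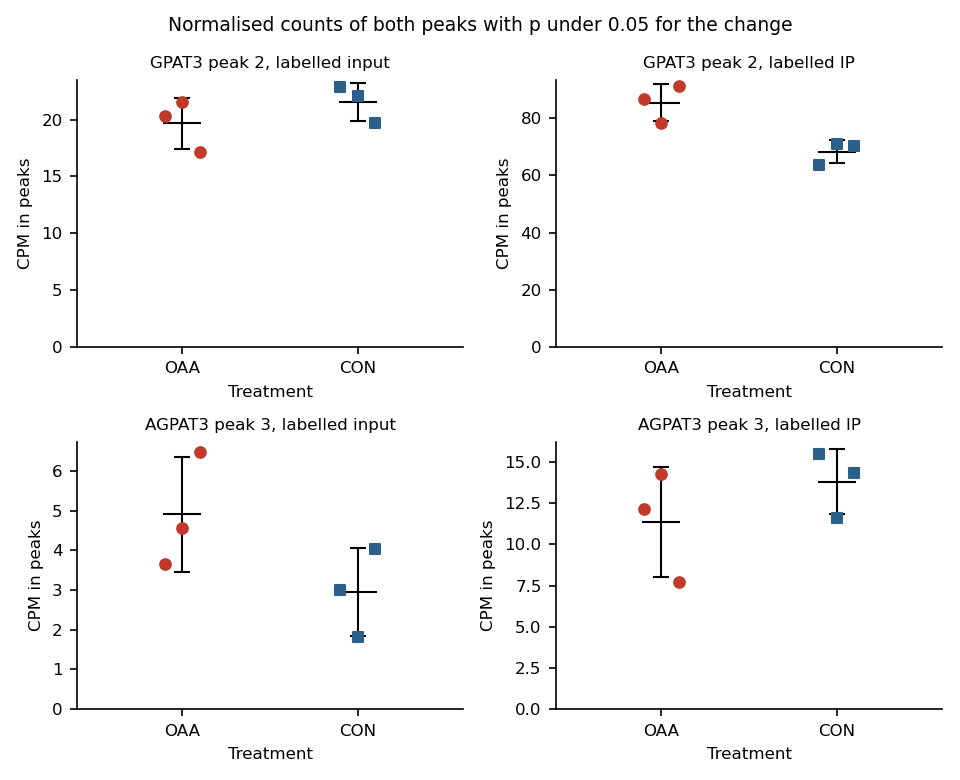
Normalised counts (CPM in peaks) of GPAT3 peak 2 and AGPAT3 peak 3 in the labelled-input (left) and labelled-IP (right) libraries, OAA left of CON. Points are cultures, the horizontal mark is the mean and the bar is 1 SD; for GPAT3 peak 2 the groups separate in the labelled-IP libraries and overlap in the labelled-input libraries, and for AGPAT3 peak 3 they overlap in both.

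Within one kind of library, no member peak was called either. In the labelled-input libraries, edgeR called 0 of 20 member peaks, against 0% of 24835 peaks (1292 at an unadjusted p under 0.05, 2 called by DESeq2), and 1 member peak, AGPAT3 peak 3, had an unadjusted p under 0.05. In the labelled-IP libraries it called 0 of the 18 member peaks tested, against 0.00498% of 20098 peaks, and GPAT3 peak 2 alone of these had an unadjusted p under 0.05. DESeq2 called 1 labelled-IP peak and 0 of the members, and without OAA culture 3 edgeR called 50 labelled-IP peaks, again with 0 of the members. LPIN1 peak 2 and LPIN2 peak 1 had too few labelled-IP counts to be tested.

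Some member peaks had groups that did not overlap. In the labelled-IP libraries all OAA values lay above CON in 2 member peaks (GPAT3 peak 2 and LPIN1 peak 1) and below in 2 (GPAT4 peak 2 and AGPAT3 peak 1), of 20, against 5.28% and 4.47% of all peaks. In the labelled-input libraries they lay above in 1 (DGAT1 peak 3) and below in 0 of 20, against 5.31% and 5.65%.

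The related gene lists gave the same count for the change of the peak ratio. edgeR called 0 peaks in any of the 6 lists, and at an unadjusted p under 0.05 stood 2 of 32 tested peaks of other droplet proteins, 1 of 15 of lipolysis, 4 of 25 of regulators and 0 in the other 3 lists.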

How the data were processed

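IPEC-J2 cells with 25 µM or 0 µM OAA gave 12 libraries in 4 groups of 3. Groups and cultures follow the titles. The deposited peak table holds read counts per library in each merged peak, with the authors' log2 ratio per treatment, p-value and adjusted p-value, per the file headers. The deposited expression table gives FPKM for 6 libraries, which by their codes are those titled IP. The submitters' processing notes name Bowtie2 and HISAT2 without role or version. The build of the genome is not given in the sources used here. Each distinct peak was used once; 0 library columns were unmatched.

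Peak symbols chose the members, and their identifiers linked them to the gene table. DGAT2, without a peak, took its identifier from a reference table of gene names. CPM were computed from the counts with TMM scaling over all peaks, and culture ratios with a prior count of 0.5. The test for counts was the quasi-likelihood F test of edgeR 4.0.16 after TMM and filterByExpr, in R 4.3.3. The test for FPKM was limma 3.58.1 with a trend, on log2 values after adding 1, where 3 libraries or more reached 1 FPKM. Every fit covered all features, with Benjamini-Hochberg adjustment, and features with an adjusted p under 0.05 were called. All tests were two-sided. Peak ratios run in the direction of the deposited log2 ratios. The edgeR tests, with and without a block, DESeq2 and the main limma fit were tested on simulated data with known changes. Those changes were placed only in features above a set mean level, and the other alternatives were not simulated.

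Alternatives were DESeq2 1.42.0, library size alone, no filter, a pseudocount of 0.1, median-centred libraries, peaks under several genes included, a replicate block and each culture left out. The protocol divides the RNA of a sample into both parts, so both libraries of one number are taken as one culture. Their deviations from the group means correlated between -0.03 and 0.11, and 5 of 6 libraries correlated best with that of their own number. The main fits of the peak ratio and of its change left out this pairing of libraries. Among the fits, only the replicate block of the peak ratio and of its change used it. For FPKM and for counts of one kind of library, the replicate block matched same-numbered OAA and CON cultures instead. Same-numbered OAA and CON cultures correlated between -0.25 and -0.01, and no label pairs them.

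The members, the 6 related gene lists and the markers of 7 cell types were chosen with earlier results of these data known. Named are the members, up to 4 genes with the smallest p per related list with any called, and per member the peak with most counts and that with the smallest p for the change. Members' other peaks are given too. Depth is that of reads in peaks; FPKM carry no depth.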

Additional observations from a re-analysis of the deposited data

How the results depend on the processing

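Between 7 and 11 alternatives were run per comparison. The members kept 0 calls in every one of them for FPKM, labelled-input and labelled-IP counts and the change of the peak ratio, and between 16 and 18 of the 20 peaks were called for the peak ratio in each treatment. Under every alternative, 15 of 16 called peaks kept their call in OAA (not PLIN3 peak 1) and 15 of 17 in CON (not AGPAT3 peak 1 and PLIN3 peak 1). Over all features, the FPKM comparison gave 1 call without the filter, against 0. Labelled-input counts per gene gave 1 call with DESeq2 and 0 to 1 with each culture left out. Labelled-input counts per peak gave 2 calls with DESeq2, 1 with the replicate block and 0 to 1 with each culture left out. Labelled-IP counts per peak gave 0 calls with library size alone, 4 without the filter, 4 with the replicate block and 0 to 50 with each culture left out, against 1; the 50 calls came without OAA culture 3. The change of the peak ratio gave 1 call with DESeq2, 1 with the replicate block and 0 to 1 with each culture left out. The cause of these differences was not tested. The replicate block changed no call of a member other than DGAT1 peak 1, whose ratio in CON was -0.65 and called lower (edgeR, adjusted p = 0.0262). DGAT1 peak 1 was also called lower with library size alone in both treatments and without the filter in CON, and PLIN2 peak 1 in OAA with library size alone and without the filter. Without CON culture 3, LPIN1 peak 2 was called lower in CON (-1.74, adjusted p = 0.0285). With library size alone, the ratio of LPIN1 peak 2 in OAA was -0.19 and the change of PLIN3 peak 1 was 0.024, each with its sign turned.

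Signs of values that were not called also turned with single cultures left out, over the ranges given here in log2 units. For FPKM these were GPAT4 (-0.050 to 0.032), AGPAT3 (-0.053 to 0.042), DGAT1 (-0.22 to 0.0021), PLIN3 (-0.068 to 0.067), FABP5 (-0.0069 to 0.11), LPCAT1 (-0.10 to 0.0063) and SREBF1 (-0.14 to 0.0034). For labelled-input counts per gene they were GPAT3 (-0.13 to 0.022), GPAT4 (-0.0078 to 0.093), LPIN2 (-0.035 to 0.049) and PLIN3 (-0.13 to 0.070), and per peak GPAT4 peak 2 (-0.050 to 0.16). For the peak ratio they were LPIN1 peak 2 (-0.21 to 0.77) in OAA, and LPIN1 peak 2 (-1.74 to 0.13) and PLIN2 peak 1 (-0.18 to 0.028) in CON. For the change of the peak ratio they were GPAT3 peak 1 (-0.29 to 0.044), GPAT4 peak 1 (-0.028 to 0.064), GPAT4 peak 3 (-0.015 to 0.17), AGPAT3 peak 2 (-0.13 to 0.041), AGPAT3 peak 4 (-0.17 to 0.35), LPIN1 peak 1 (-0.10 to 0.037), LPIN1 peak 2 (-0.017 to 1.85), LPIN2 peak 4 (-0.020 to 0.16), DGAT1 peak 1 (-0.18 to 0.56), DGAT1 peak 2 (-0.31 to 0.60), DGAT1 peak 3 (-0.029 to 0.078) and PLIN3 peak 1 (-0.11 to 0.17). With 3 cultures per treatment and 200 to 66809 counts per member peak, the small peaks limit what can be seen.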
